A study of Drosophila melanogaster with 150 samples.

Results

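The zinc exporters of the ZnT family were followed in whole adult males of Drosophila melanogaster. The genes were taken by their symbols, ZnT63C, ZnT35C, ZnT41F, ZnT86D, ZnT77C and ZnT33D. All 6 had a single probe set on the array, out of 18769 probe sets tested, and each of these carried no other gene symbol. The arrays were 75 labelled lead, from flies reared on food with 250 uM lead acetate, and 75 labelled control, from flies reared on food with 250 uM sodium acetate. Both foods were otherwise standard cornmeal, agar, sugar and yeast, and the same 75 recombinant inbred lines, the roo lines, were reared on each. An array holds a pool of male progeny aged 5 to 10 days from a single vial, so a line has 1 array per food. The lines are inbred, each array measures the whole body, and no genotype beyond the line number is given in the sources used here.

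ZnT proteins move zinc out of the cytosol, either across the cell surface or into vesicles and the Golgi. Most ZIP proteins work in the opposite direction. In flies ZnT63C sits at the basolateral side of gut cells and passes dietary zinc on to the body, with ZnT77C described at the same step. ZnT35C acts in the Malpighian tubules, the fly's kidney-like organ, and is known as a gene that zinc and cadmium induce through the metal-responsive transcription factor MTF-1. ZnT86D is a Golgi transporter. Metallothioneins such as MtnB bind metal ions through their many cysteines and are under MTF-1 as well.

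All values are log2 signals as deposited, and a difference of 1 is a doubling if the base of the logarithm, which is inferred, is 2. Array medians lay between 5.26 and 5.52. Signal levels of different probe sets do not give relative amounts of RNA, so no member's level is ranked against another's. Spreads and differences are ranked over probe sets below, with no correction for how strongly each probe set responds. MtnB, a gene that metals induce, was high on 40 arrays labelled lead and on 36 labelled control. The groups are therefore named as the arrays labelled lead and the arrays labelled control.

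MtnB divided the arrays into an upper side with 76 arrays above 10 and a lower side with 74 arrays below 10. No array lay near that value, as the closest on the upper side was 11.02 and the closest on the lower side was 8.99. Of the lower 74 arrays, 35 were labelled lead and 39 labelled control. The sides are defined by a measured signal and are not groups of the study, and what the flies of the upper arrays had eaten is not known from them.

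ZnT63C had the largest SD of the 6 genes over the 150 arrays, 0.37, while ZnT35C had the widest range, 2.15 against 1.45 for ZnT63C. A higher SD than that of 83% of all probe sets was reached by ZnT63C, of 74.5% by ZnT35C and of 67.2% by ZnT41F, on the same log2 scale. ZnT86D, with an SD of 0.27, exceeded 62.4% of probe sets, ZnT33D, with 0.24, exceeded 55.9%, and ZnT77C, with 0.21, exceeded 48.5%. The median SD of a probe set was 0.22. Much of the spread of the first genes lay between the sides of MtnB. That share of the variance was 63.3% for ZnT63C, 44.8% for ZnT35C and 35.5% for ZnT41F. It was 2.87% for ZnT33D, 1.28% for ZnT86D and 1.09% for ZnT77C, whose spread lay almost wholly within the sides.

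On the arrays with MtnB above 10, ZnT63C, ZnT35C and ZnT41F were higher than on the arrays below 10, while ZnT86D, ZnT77C and ZnT33D did not pass the test. The test was limma's moderated test over all probe sets, with a call at a Benjamini-Hochberg adjusted p under 0.05. It called 11.7% of probe sets higher and 17% lower on the upper side, so a call in itself was common. Of the 6 members 3 were called higher and 0 lower, and their median difference was 0.20, against a median of -0.018 over all probe sets. The absolute difference of ZnT41F, the smallest of the 3 called, exceeded that of 95.1% of probe sets. In whole-body RNA, more cells of a type and more RNA per cell cannot be told apart.

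ZnT63C, the gut exporter, ran from 7.56 to 8.74 with a median of 8.20 on the arrays above 10, against 7.28 to 8.11 with a median of 7.59 on the arrays below 10. On 43 of the 76 upper arrays it was higher than on any lower array, so the sides overlapped only in part. The means were 8.21 ± 0.27 (SD, n = 76) above and 7.62 ± 0.17 (SD, n = 74) below. The difference was 0.59 (95% interval 0.52 to 0.66), or 1.5-fold, with an adjusted p of 5.7e-31 in limma. By p this probe set stood 7th of the 18769.

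ZnT35C, the tubule gene that metals induce, ran from 7.54 to 9.01 with a median of 7.99 on the arrays above 10, against 6.85 to 8.08 with a median of 7.61 on those below. It was higher than on any lower array on 30 of the 76 upper arrays. The difference was 0.42 (95% interval 0.35 to 0.50), or 1.34-fold, with an adjusted p of 2.1e-18 in limma. Its end values were set by single arrays. The highest, 9.01, came from the array labelled line 224 lead, and the next was 8.58. The lowest, 6.85, came from the array labelled line 89 control, and the next was 7.2.

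ZnT41F ran from 6.70 to 7.76 with a median of 7.39 on the arrays above 10, against 6.42 to 7.63 with a median of 6.99 on those below. The sides overlapped more than for the genes before, as 5 upper arrays exceeded every lower array. The difference was 0.34 (95% interval 0.27 to 0.41), or 1.27-fold, with an adjusted p of 1.2e-13 in limma.

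The remaining genes overlapped over nearly their whole range. ZnT86D, the Golgi transporter, had a mean of 7.03 ± 0.26 (SD, n = 76) above and 6.97 ± 0.27 (SD, n = 74) below, a difference of 0.060 (95% interval -0.025 to 0.15). ZnT77C had 5.72 ± 0.21 above and 5.68 ± 0.21 below, a difference of 0.045 (-0.024 to 0.11). ZnT33D had 5.86 ± 0.20 above and 5.94 ± 0.27 below, a difference of -0.081 (-0.16 to -0.0047). Their adjusted p in limma was 0.316, 0.362 and 0.105. None of these intervals reaches the difference of ZnT41F (0.34). The means of ZnT77C and ZnT33D over all arrays, 5.70 and 5.90, lay not far above the median of all probe set means, 5.43. How much of such a signal is background was not tested, and a difference may not show there.

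**Figure D1:**
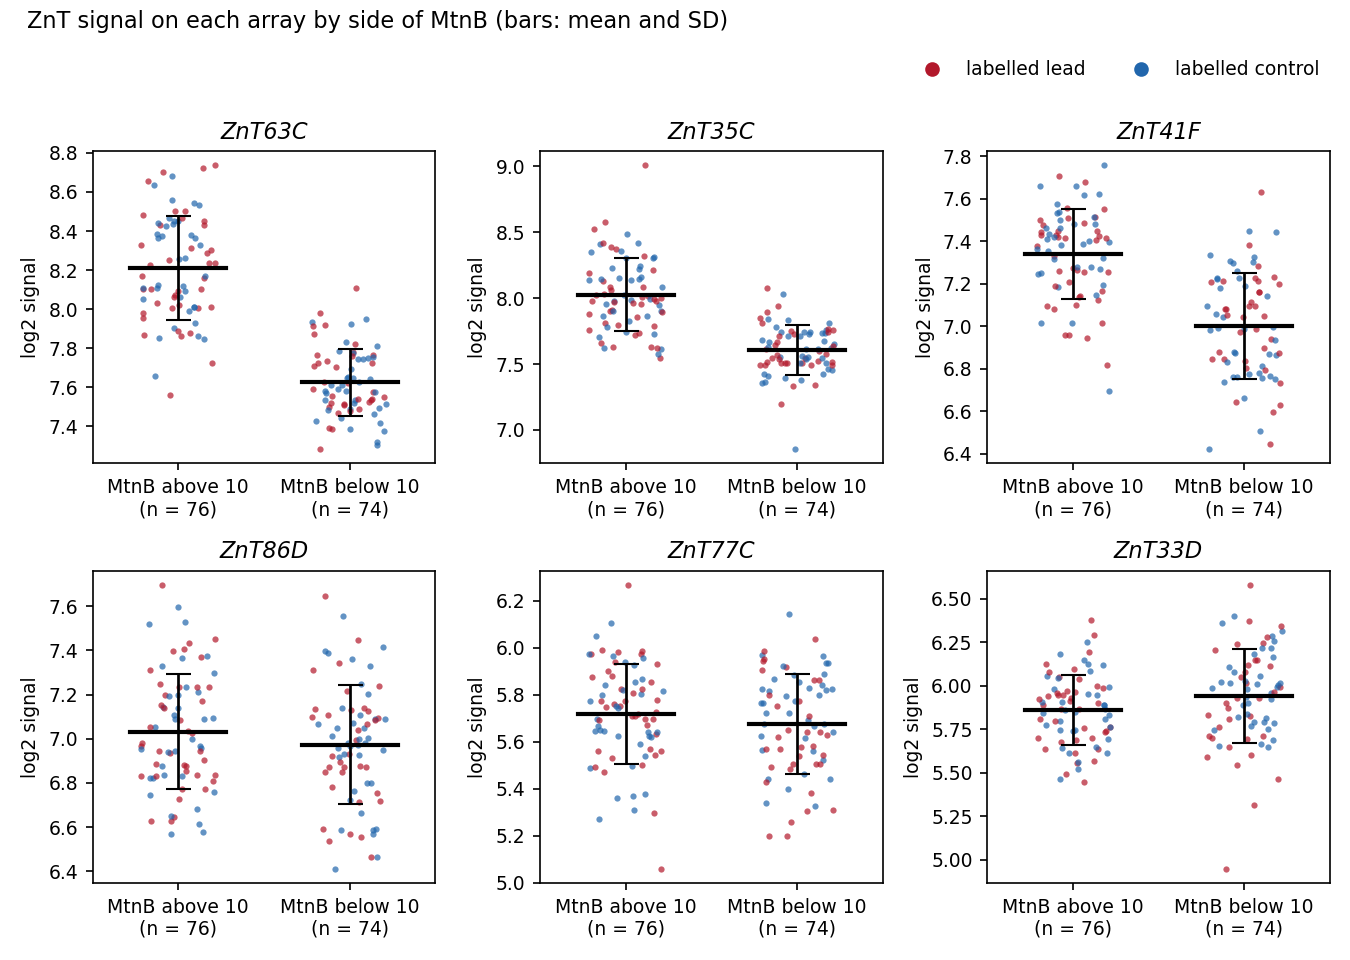
Log2 signal of the 6 ZnT genes on every array (vertical axes), on the 76 arrays with MtnB above 10 at left and the 74 below 10 at right, with red points for arrays labelled lead and blue points for arrays labelled control; bars give the mean and SD. The sides stand apart, with overlap, for ZnT63C (8.21 and 7.62), ZnT35C (8.03 and 7.60) and ZnT41F (7.34 and 7.0), and lie over each other for ZnT86D, ZnT77C and ZnT33D.

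The same difference was then taken inside lines, as labelled. Same-line arrays deviated together only weakly, at a mean r of 0.067 against 0.00047 for other lines. It is therefore not settled here that each pair is of the same line. In 30 lines the 2 arrays lay on opposite sides of 10 in MtnB, in 17 of them with the array labelled lead above and in 13 with the array labelled control above. ZnT63C was higher on the upper array in 29 of the 30 lines, by 0.58 on average (95% interval 0.48 to 0.68, adjusted p = 1.0e-09 in limma). ZnT35C was higher in 30 of 30, by 0.46 (0.36 to 0.56, adjusted p = 4.0e-08). ZnT41F was higher in 25 of 30, by 0.33 (0.20 to 0.45, adjusted p = 0.00037). The test within lines called 4.9% of all probe sets higher and 4.51% lower. ZnT86D was higher in 19 of 30 lines, ZnT77C in 15 and ZnT33D in 14, and none of these was called, with adjusted p values of 0.656, 0.993 and 0.576.

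The direction held whichever label the upper array carried. Where the upper array of a line was labelled lead, ZnT63C differed by 0.52 ± 0.27 (SD, n = 17 lines), and where it was labelled control, by 0.66 ± 0.25 (SD, n = 13 lines). ZnT35C differed by 0.41 ± 0.24 (SD, n = 17) and 0.52 ± 0.28 (SD, n = 13) in the same order. ZnT41F differed by 0.30 ± 0.35 (SD, n = 17) and 0.36 ± 0.32 (SD, n = 13). Over all arrays, the difference between the sides of MtnB was 0.56 among arrays labelled lead and 0.62 among arrays labelled control for ZnT63C, 0.40 and 0.45 for ZnT35C, and 0.30 and 0.38 for ZnT41F. The interaction of side and labelled diet was called in 0% of probe sets by limma, where 1645 had an unadjusted p under 0.05. For ZnT77C it was 0.14 (95% interval 0.0063 to 0.28), with an unadjusted p of 0.040 and an adjusted p of 0.554, from side differences of 0.12 among arrays labelled lead and -0.025 among arrays labelled control.

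The labelled diets themselves did not separate any of the 6 genes. ZnT63C ranged from 7.28 to 8.74 with a median of 7.91 on the arrays labelled lead, against 7.31 to 8.68 with a median of 7.85 on those labelled control. The difference within lines was 0.032 (95% interval -0.076 to 0.14), and in 43 of 75 lines the lead array had the higher ZnT63C signal. ZnT35C differed by 0.012 (-0.094 to 0.12) and was higher in 36 of 75 lines, and ZnT41F by -0.013 (-0.10 to 0.074), higher in 33. ZnT86D differed by -0.00052 (-0.085 to 0.084), ZnT77C by -0.033 (-0.10 to 0.037) and ZnT33D by -0.036 (-0.10 to 0.031). The adjusted p, rounded, was 1.00 for all 6 in a limma fit with line as a block. That fit called 0% of probe sets, with 490 at an unadjusted p under 0.05. With MtnB high under both labels, it is not settled here that the labels belong to the values, so these differences describe the labels as given and may not be those between the foods.

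**Figure D2:**
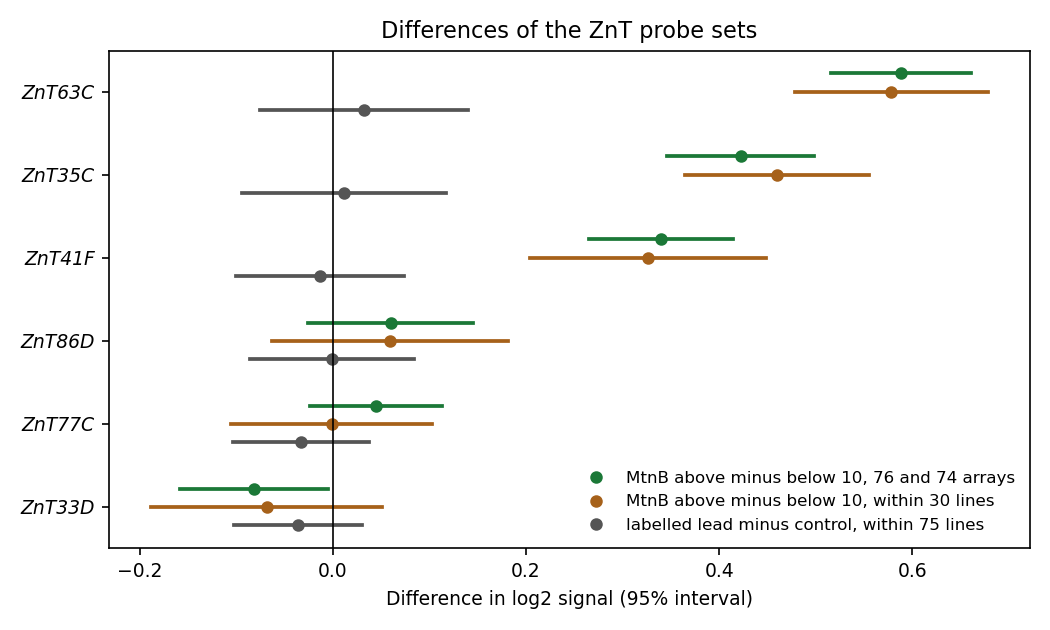
Difference in log2 signal (horizontal axis) with its 95% interval for each ZnT gene, as MtnB above minus below 10 over all arrays (green) and within the 30 lines with an array on each side (brown), and as labelled lead minus labelled control within 75 lines (grey). The green and brown intervals of ZnT63C, ZnT35C and ZnT41F lie right of 0 and apart from the grey ones, whose intervals all include 0.

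Among the 76 arrays above 10, ZnT63C and ZnT35C also followed the amount of MtnB. For each unit of log2 MtnB signal, ZnT63C was higher by 0.34 (95% interval 0.24 to 0.44, adjusted p = 5.4e-06 in limma) and ZnT35C by 0.31 (0.21 to 0.42, adjusted p = 0.00024). This fit called 1.26% of probe sets with a rising and 0.112% with a falling slope, and by p ZnT63C stood 4th and ZnT35C 8th of 18768. The fit had no line term, although 23 lines had both of their arrays above 10. When each upper array was left out in turn, any such partner array stayed in. ZnT63C and ZnT35C were called in all 76 fits, with slopes from 0.33 to 0.36 for ZnT63C and from 0.28 to 0.35 for ZnT35C. The lowest slope of both came without the array labelled line 224 lead, which had the highest MtnB signal of all, 13.53. ZnT41F had a slope of 0.16 (0.064 to 0.25) and an adjusted p of 0.0743, and its result turned on single arrays. It was called in 5 of the 76 fits, and ran from 0.11 without the array labelled line 79 control to 0.19 without the array labelled line 58 control, the arrays of lowest MtnB on that side. ZnT86D, ZnT77C and ZnT33D had slopes of 0.14, -0.038 and -0.10 with adjusted p values of 0.331, 0.834 and 0.371.

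Among the 74 arrays below 10, no member was called. The slope per unit of MtnB was 0.042 (95% interval 0.0028 to 0.081) for ZnT63C, -0.0015 (-0.045 to 0.042) for ZnT35C and 0.070 (0.016 to 0.12) for ZnT41F. Their adjusted p values in limma were at least 0.998 after rounding. This fit called 0% of probe sets, with 756 at an unadjusted p under 0.05. MtnB itself spanned 4.40 to 8.99 there, a wider range than the 11.02 to 13.53 of the upper side. The slopes of the sides were not tested against each other.

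**Figure D3:**
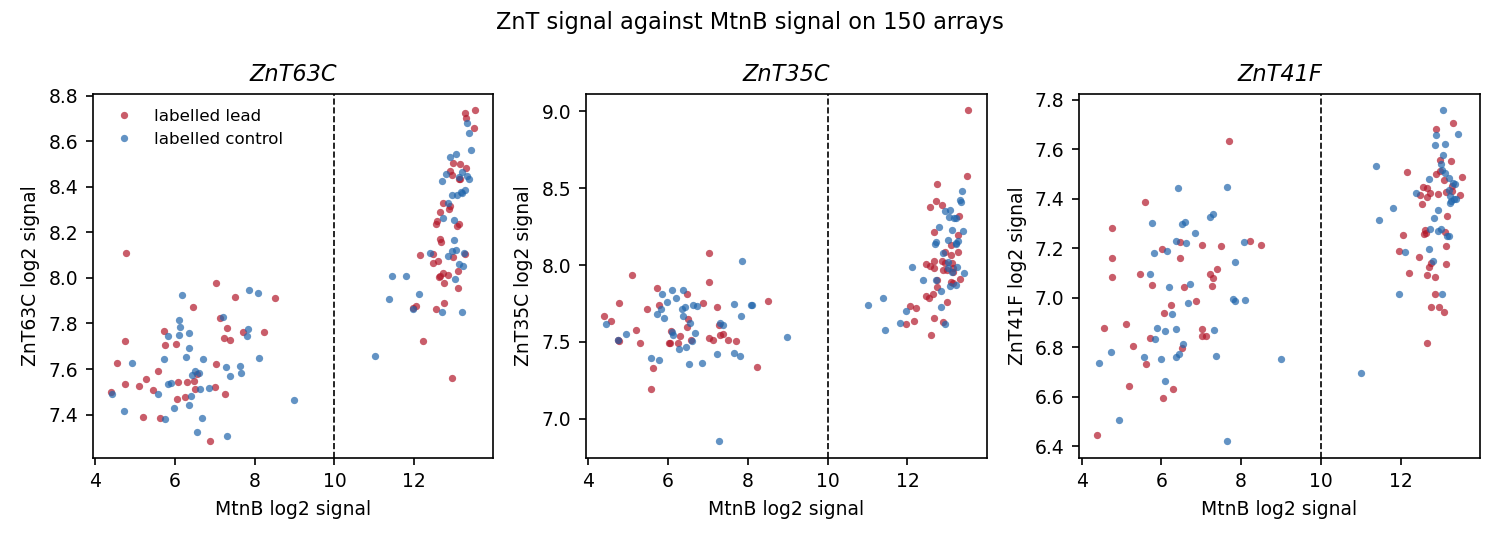
Log2 signal of ZnT63C, ZnT35C and ZnT41F (vertical axes) against that of MtnB (horizontal axis) on 150 arrays, red where labelled lead and blue where labelled control, with a dashed line at 10. ZnT63C and ZnT35C climb with MtnB right of the line, at 0.34 and 0.31 per unit, and both labels occur on each side.

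Other metal-handling genes were counted in the same comparison, in which 11.7% of all probe sets were called higher and 17% lower. The 5 measured genes of the list of metallothioneins and MTF-1 were all called higher on the upper side, which MtnB, one of them, defines. MtnD differed by 3.72, MtnC by 2.52, MtnA by 0.45 and MTF-1 itself by 0.36, and all 5 were also called within the 30 lines. The ferritin subunits, which store iron, were higher as well, Fer1HCH by 0.69 and Fer2LCH by 0.84. In the iron list 4 of 8 measured genes were called higher and 0 lower, with a median of 0.11. The others called were the transferrin Tsf1 (0.26) and the divalent metal transporter Mvl (0.16). Within the 30 lines both ferritin genes were called, at 0.68 for Fer1HCH and 0.81 for Fer2LCH, while Tsf1 (0.091, adjusted p = 0.699 in limma) and Mvl (0.11, adjusted p = 0.392) were not.

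Of 10 ZIP genes, 4 were called higher and 0 lower, a share of 40% higher against 11.7% of all probe sets, with a median difference of 0.099. Most ZIP proteins carry zinc and related metals toward the cytosol. Zip89B, a zinc importer of the gut, differed by 0.51 ± 0.076 (SE) and Zip48C by 0.40 ± 0.054. Zip99C, which moves iron within the secretory pathway in flies, differed by 0.23 ± 0.034 and Zip88E by 0.21 ± 0.041. The gut importers Zip42C.1 and Zip42C.2, at -0.021 and -0.015, were not called. Their mean signals above 10, 3.19 and 3.37, lay near the low end of the deposited values (1.93 to 14.04), where a difference may not show. Within the 30 lines, Zip99C (0.24, adjusted p = 0.00075 in limma) and Zip48C (0.32, adjusted p = 0.0095) were called, while Zip88E (0.19, adjusted p = 0.0924) and Zip89B (0.31, adjusted p = 0.107) were not. In the copper list 2 of 5 measured genes were higher, the importer Ctr1B by 0.44 and the chaperone Atox1 by 0.13. The signal of Ctr1B was low too, with means of 3.12 above and 2.68 below. In that list 1 gene was lower, Ctr1C by -0.23, a share of 20% near the 17% of all probe sets. Ctr1B and Atox1 were called within the lines too, and Ctr1C was not (-0.12, adjusted p = 0.418 in limma). Of 13 measured genes of pigment granules and related organelles, a class of vesicle linked to zinc storage in the tubules, 1 was higher, the eye pigment gene cl by 0.32. Another 2 were lower, Vps33B by -0.053 and Blos1 by -0.12, and the median was -0.0035. These shares of the list, 7.69% higher and 15.4% lower, lie near those over all probe sets, so the counts are no result about the list. Within the lines cl was called (0.32), and Vps33B and Blos1 were not (adjusted p = 0.602 and 0.361 in limma). Between the labelled diets, limma called 0 genes in each of these lists.

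**Figure D4:**
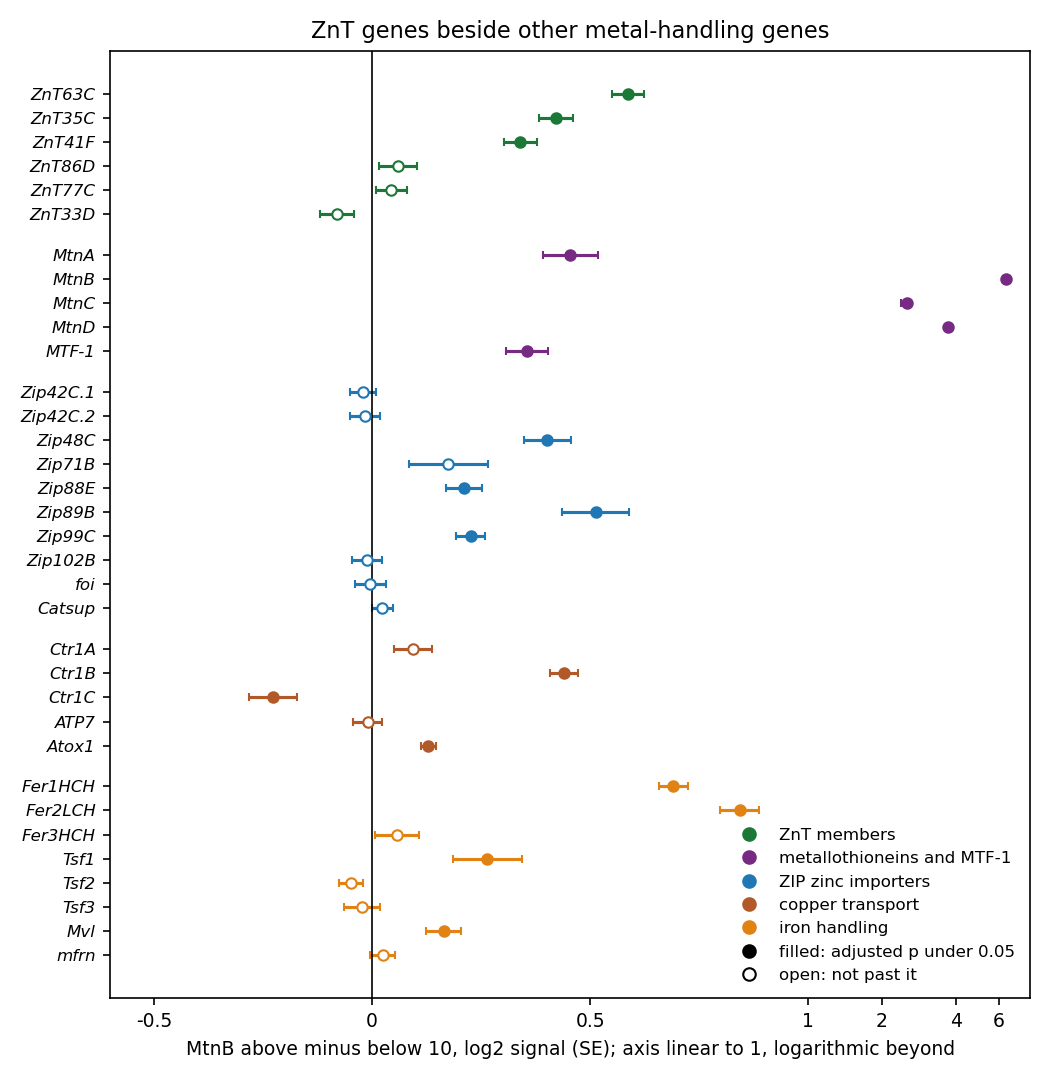
Difference between the arrays with MtnB above and below 10 (horizontal axis, log2 signal with its SE, linear to 1 and logarithmic beyond) for the ZnT genes and the measured genes of 4 metal-handling lists, filled where the adjusted p is under 0.05. ZnT63C (0.59) lies near the ferritins Fer1HCH (0.69) and Fer2LCH (0.84), and MtnB, MtnC and MtnD lie far right.

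Tissue markers moved between the sides of MtnB too, in a comparison that called 11.7% of all probe sets higher and 17% lower. Within the 30 lines these shares were 4.9% and 4.51%. Of 7 measured midgut markers, mostly digestive proteases, 6 were higher on the upper side, with a median difference of 0.58. These were the proteases Jon66Ci (1.23), Jon25Biii (1.11), alphaTry (0.58), Jon65Aiii (0.57) and Jon65Aiv (0.56) and the maltase Mal-A1 (0.94), and all 6 were called within the 30 lines as well. Their mean signal ran from 9.83 to 12.09 with a median of 11.40 above, against 8.15 to 11.78 with a median of 10.80 below. Of 6 measured Malpighian tubule markers 1 was higher, the potassium channel gene Irk3 by 0.22, a share of 16.7% against 11.7% of all probe sets. Irk3 was not called within the lines (0.11, adjusted p = 0.707 in limma). The mean signal of the tubule list had a median of 7.38 above (6.74 to 7.74) and 7.28 below (6.50 to 8.0). Of 7 muscle markers 5 were lower, of 7 neuron markers 5 and of 8 accessory gland markers 5, with median differences of -0.33, -0.20 and -0.17. The muscle genes were up (-0.44), Mlc1 (-0.34), Tm2 (-0.30), sls (-0.19) and bt (-0.19). The neuron genes were elav (-0.27), cac (-0.26), ChAT (-0.23), nSyb (-0.20) and brp (-0.13), and the accessory gland genes were Acp26Aa (-0.46), Acp76A (-0.44), Acp62F (-0.23), Acp26Ab (-0.21) and Acp36DE (-0.13). Within the 30 lines the calls were fewer, 2 of these 5 muscle genes (up and sls), 1 of the 5 neuron genes (ChAT) and 1 of the 5 accessory gland genes (Acp26Aa). The mean signals of these lists ran from 8.99 to 11.45, 5.95 to 6.86 and 10.16 to 11.74 above, against 9.35 to 11.73, 5.77 to 6.95 and 10.23 to 11.75 below. In testis, 0 of 12 markers were called. Of 5 eye markers Arr1 was higher (0.28) and trpl lower (-0.53), a share of 20.0% each way, and within the lines trpl was called (-0.58) and Arr1 was not (0.16, adjusted p = 0.491 in limma). Of 6 fat body markers apolpp was higher (0.40), also within the lines, a share of 16.7%. The tubule, eye and fat body counts hold at most 1 gene per direction, near the shares over all probe sets, and are no result about those lists. Of yolk and eggshell markers 0 of 12 were called, though their mean signal reached 10.25 above and 8.61 below on single arrays. The difference of the 3' and 5' actin probe sets, a sign of RNA quality, was 1.44 ± 0.43 (SD, n = 76) above and 1.63 ± 0.53 (SD, n = 74) below. The part of these shifts in the ZnT differences was not tested. The covariate fits that follow cannot measure it, since the marker signals stand for tissues only roughly and themselves differ between the sides.

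With the midgut marker signal as a covariate, the difference between the sides was 0.50 for ZnT63C and 0.45 for ZnT35C, and both were called in limma (adjusted p = 1.6e-21 and 1.4e-15). For ZnT41F it was 0.16 (adjusted p = 0.00011), less than with no covariate (0.34). With midgut, muscle, neuron and accessory gland signals together it was 0.49, 0.43 and 0.17, again called for all 3. With the actin difference as the covariate it was 0.58, 0.43 and 0.30. These covariates were chosen after the differences between the sides were seen, and the tubule markers were not among them.

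The genes whose signals were most like those of a member differed from member to member. The Pearson correlation over the 150 arrays served as the measure of likeness, with no test, since the points share the sides of MtnB. ZnT63C was closest to the ferritin genes, with r = 0.89 for Fer1HCH and r = 0.87 for Fer2LCH, followed by the glycosyltransferase gene Ugt302E1 with r = 0.82. Within the sides, the r of ZnT63C and Fer1HCH was 0.79 above 10 and 0.52 below. ZnT35C was closest to MtnB (r = 0.69), MtnD (0.65) and Fer1HCH (0.65). Its r with MtnB was 0.56 above 10 and -0.0081 below.

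ZnT41F was closest to genes that are named by number alone, CG13086 (r = 0.83), CG6484 (0.82) and CG15152 (0.81). Unlike those of ZnT35C, these correlations were of similar size on both sides, 0.78 and 0.72 for CG13086 above and below. ZnT41F correlated with the mean midgut marker signal at r = 0.65 above and 0.67 below, and with the testis markers at -0.67 and -0.54. These relations were not particular to those lists. ZnT41F gave 0.73 and 0.53 with the ZIP genes, 0.61 and 0.45 with the iron list and 0.52 and 0.32 with the tubule markers. With the neuron markers it gave -0.57 and -0.64. ZnT63C gave 0.30 and 0.43 with the midgut markers and ZnT35C -0.082 and -0.13. With the Malpighian tubule markers ZnT35C, a gene of that organ, gave 0.026 and 0.074, while ZnT63C gave 0.36 and 0.56.

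ZnT86D was closest to CG13252 (r = 0.76), the ion cotransporter gene NKCC (0.72) and RAF2 (0.71), and ran against the muscle markers, at -0.48 above and -0.64 below. It also rose with other lists, at 0.45 and 0.49 with the pigment granule list and 0.39 and 0.48 with the midgut markers. With the list of metallothioneins and MTF-1, ZnT86D gave 0.52 above and 0.50 below. ZnT63C gave 0.69 and 0.43 there, ZnT41F 0.57 and 0.50, and ZnT35C 0.40 and -0.0033. ZnT33D was closest to CG30350 (0.82), CG9014 (0.80) and CG7335 (0.79). Its r with the testis markers was 0.47 above and 0.72 below. Correlations with other lists were smaller in size but not absent. ZnT33D gave 0.29 and 0.59 with the copper list, 0.21 and 0.46 with the accessory gland markers and -0.38 and -0.63 with the pigment granule list. The lowest ZnT33D signal of all, 4.95 on the array labelled line 3 lead, coincided with the lowest testis marker signal, 7.82. The next lowest ZnT33D signal was 5.31. Line 3 is among the 8 lines with the least correlated arrays, and r without this array was not computed. ZnT77C had no close partner, and the most alike were the sex determination gene dsx (r = 0.54), CG14034 (0.50) and CG31872 (0.43).

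**Figure D5:**
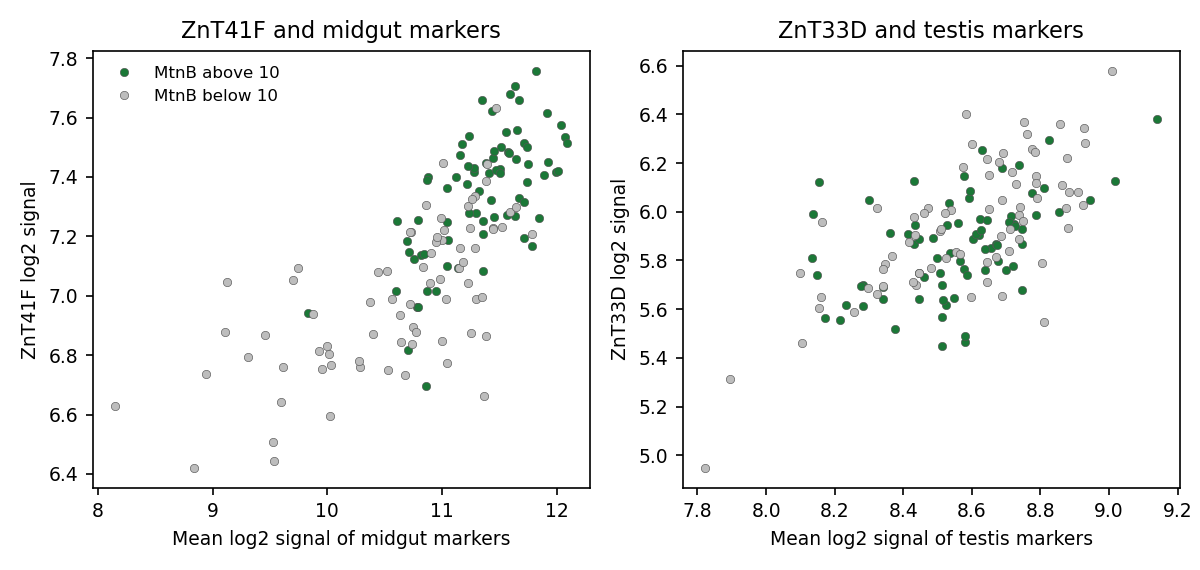
Log2 signal of ZnT41F against the mean log2 signal of the midgut markers (left) and of ZnT33D against that of the testis markers (right), 1 point per array, green for MtnB above 10 and grey for MtnB below 10. Both relations run through the green and the grey points, with r of 0.65 and 0.67 for ZnT41F and of 0.47 and 0.72 for ZnT33D. Other lists, not shown, correlated with these genes too.

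Among themselves, the members did not vary as a unit. ZnT63C and ZnT35C correlated at r = 0.70 over all arrays, but at 0.44 (Spearman's rho 0.41) above 10 and 0.23 (rho 0.16) below, and without the 2 arrays farthest from the ZnT63C median at 0.46 above and 0.14 below. ZnT63C and ZnT41F gave 0.56 (rho 0.52) above and 0.32 (rho 0.33) below, and ZnT63C and ZnT86D 0.45 (rho 0.44) above and 0.53 (rho 0.54) below. ZnT35C and ZnT41F, both higher on the upper side, gave 0.0048 above and -0.17 below. ZnT33D ran against ZnT63C at -0.35 above and -0.37 below, and against ZnT41F at -0.36 and -0.28. ZnT77C stayed between -0.18 and 0.21 with every other member on both sides. These correlations are descriptions over arrays on which the tissue markers and the actin difference vary too.

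The signals followed the labelled line weakly at most. Across the 75 lines, the r between the lead and the control array was 0.29 for ZnT33D, 0.18 for ZnT63C, 0.11 for ZnT41F, 0.030 for ZnT86D, -0.043 for ZnT77C and -0.079 for ZnT35C. Over all probe sets the median was 0.057, and the range from the 5th to the 95th percentile ran from -0.15 to 0.24. ZnT33D thus lay above the 95th percentile. Its adjusted p in limma's F-test of the line terms was 0.289 (unadjusted p = 0.0058), and that of ZnT63C was 0.396 (unadjusted p = 0.046). The F-test called 0.0107% of probe sets and no member.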

How the data were processed

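Whole-male RNA of 75 lines on 2 foods was measured on 150 Affymetrix arrays. The authors deposited a table of 18952 probe sets, in log2 units as inferred from values of 1.93 to 14.04; its summarisation and normalization are not stated in the labels. Values were used unchanged, with 0 missing values and 0 identical arrays. No filter on signal was applied and 183 array controls were left out. The number of arrays limits the precision.

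Names came from the platform table given (1 symbol for 13647 probe sets, several for 402, none for 4720), and all 6 members matched the Release 6 gene table. Probe set names ending in s_at (ZnT63C, ZnT41F, ZnT77C) can match several transcripts. No coordinates or sequences were used.

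Tests were limma 3.58.1 fits in R 4.3.3 over all probe sets. The fits were also run on simulated data with independent noise for each probe set and array. Those data lack shifts shared by many probe sets, so the run cannot show how the fits behave under them. The diet fit was paired by line, since the labels name each line on both foods; same-line arrays deviated together at a mean r of 0.067, against 0.00047 for other lines, and in 34 of 75 lines this exceeded 0.1. P-values set a difference against the spread between these arrays. The main fits of the MtnB sides over all arrays, of the slopes and of the interaction took the arrays as independent, with no line term. A list's genes used the probe set of highest mean. All members are named, with MtnB, up to 6 called genes per list and the 3 most similar genes per member. Members, lists and tests were chosen with earlier results of these data known. Alternatives covered normalization, pairing, array weights, low signals, line series and thresholds. Figures were drawn with matplotlib 3.10.9.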

Additional observations from a re-analysis of the deposited data

How the results depend on the processing

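ZnT63C, ZnT35C and ZnT41F were called higher on the arrays with MtnB above 10 in all 17 alternatives run, with differences of 0.49 to 0.62, 0.39 to 0.46 and 0.16 to 0.40. Not all of these could have changed the outcome. The thresholds of 0.01 and 0.1 read the same fit again, and leaving out low signals kept the differences as they were. The calls of ZnT86D, ZnT77C and ZnT33D stayed absent, except that array weights called ZnT33D lower (-0.10, adjusted p = 0.0142 in limma). The number of probe sets called between the sides, 5395 in all, was 1685 with line as a replicate block and 455 in lines above 200. On arrays labelled lead it was 2326, against 4561 on arrays labelled control. With the midgut covariate it was 2485, and with all 4 tissue covariates 3073. The block leaves fewer degrees of freedom and each subset has fewer arrays, but the cause of these differences was not tested. Signs turned for ZnT77C with the replicate block (-0.0012), in lines above 200 (-0.036) and on arrays labelled control (-0.025), within lines 1 to 100 (0.043), and for the line effect with centred medians (0.0077) and in lines 1 to 100 (0.042); for ZnT86D with the midgut covariate (-0.075) and the 4 tissue covariates (-0.10); for ZnT33D with the same covariates (0.0093 and 0.011); and for the ZnT35C slope below 10 with centred medians (0.00025). For the labelled diets, signs turned for ZnT35C (-0.014) and ZnT41F (0.011) with array weights, for ZnT41F (0.016) and ZnT86D (0.0092) when the 8 lines with the least correlated arrays were left out, for ZnT41F (0.0015) and ZnT86D (0.012) in lines 1 to 100, and for ZnT63C (-0.051) and ZnT77C (0.0083) in lines above 200. None of these was called, and the diet count was 0 in all 10 alternatives, also with no replicate block. The thresholds of 0.01 and 0.1 read the same diet fit again and are no separate support. The line effect was called in 2 probe sets, 0 with centred medians, 0 without the 8 lines and 1 in lines 1 to 100. The 3 tissue and RNA covariates, the fit within lines 1 to 100 and the slopes without single arrays were chosen after seeing the data.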
